A study of Homo sapiens with 15 samples.

Results

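The RNA of 7 S100 genes was measured in THP-1 cells stimulated with bacterial extracellular vesicles (BEVs). The genes were taken by symbol from a table of 60286 genes. They were the calgranulins *S100A8*, *S100A9* and *S100A12*, and *S100A4*, *S100A6*, *S100A10* and *S100A11*. All 7 had enough counts for the test, as did 17198 genes in all. THP-1 is a human monocytic leukaemia line, and all libraries came from this 1 line, labelled wild type.

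There were 15 libraries, 3 in each of 5 groups. Non-stimulated cells (NC) were given PBS only. *E. coli* BEVs were given to the EUC and EPL groups at 1 μg/mL of BEV protein, isolated by ultracentrifugation (UC) or by precipitation with epsilon-poly-L-lysine (PL). *S. aureus* BEVs were given to the SUC and SPL groups at 10 μg/mL, isolated in the same 2 ways. The methods of the study give an incubation of 6 h and the labels give Day 0. Species and dose changed together and cannot be told apart here. Neither labels nor methods say that the 3 libraries of a group came from independent experiments, so the p-values measure the spread between these libraries, which may be technical. Levels are given in CPM, counts scaled to the TMM-normalized library size, and a library is called by its group and number. The libraries held from 14399421 to 16637345 counted reads (median 15831655).

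S100 proteins are small calcium-binding proteins, most of which work as dimers. S100A8 and S100A9 pair to form calprotectin, an abundant protein of neutrophils and monocytes that holds zinc and manganese away from microbes and, once released, acts as an alarmin on receptors such as TLR4 and RAGE. S100A12, or calgranulin C, is a related alarmin and a ligand of RAGE. S100A10 binds annexin A2 at membranes, S100A11 and S100A6 also bind annexins, and S100A4 binds non-muscle myosin.

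All 7 genes lie on the long arm of chromosome 1 (hg38, GENCODE release 44). *S100A9* (ENSG00000163220, chr1:153357854-153361023, plus strand), *S100A12* (ENSG00000163221, chr1:153373711-153375621, minus strand) and *S100A8* (ENSG00000143546, chr1:153390032-153391073, minus strand) span 33220 bases. No other annotated gene overlaps these 3. *S100A6* (ENSG00000197956, chr1:153534599-153536244) and *S100A4* (ENSG00000196154, chr1:153543613-153550136) lie farther along. *S100A10* (ENSG00000197747, chr1:151982915-151993859) and *S100A11* (ENSG00000163191, chr1:152032506-152047907) lie on the other side, and these 4 are on the minus strand. *S100A4* overlaps *S100A3* without a shared exon base, and *S100A6* shares 37 exon bases with an antisense RNA. The 10 S100 pseudogenes of the table were below the count filter, and the highest of them, *S100A11P2*, had 14 reads over all libraries.

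The 250 bases before the RefSeq start site (GRCh38.p14) are shown for the 4 genes that rose with BEVs and, for comparison, for *S100A4*, which did not pass the test. The windows are chr1:153391074-153391323 for *S100A8*, chr1:153357604-153357853 for *S100A9*, chr1:153375622-153375871 for *S100A12*, chr1:151993860-151994109 for *S100A10* and chr1:153545807-153546056 for *S100A4*. They are written 5′ to 3′ on the strand of the gene. Capitals mark a TATA box (TATAAA) or TGANTCA, a pattern looser than the AP-1 consensus, since N allows any base.
S100A8: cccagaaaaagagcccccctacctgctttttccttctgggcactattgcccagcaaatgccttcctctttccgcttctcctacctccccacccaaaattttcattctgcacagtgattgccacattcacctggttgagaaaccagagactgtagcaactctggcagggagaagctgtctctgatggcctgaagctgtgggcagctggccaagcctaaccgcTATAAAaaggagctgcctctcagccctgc
S100A9: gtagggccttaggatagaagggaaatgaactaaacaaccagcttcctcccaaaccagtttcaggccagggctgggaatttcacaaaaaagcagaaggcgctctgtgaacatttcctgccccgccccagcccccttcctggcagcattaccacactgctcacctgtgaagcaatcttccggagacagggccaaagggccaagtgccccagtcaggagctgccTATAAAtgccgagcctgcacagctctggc
S100A12: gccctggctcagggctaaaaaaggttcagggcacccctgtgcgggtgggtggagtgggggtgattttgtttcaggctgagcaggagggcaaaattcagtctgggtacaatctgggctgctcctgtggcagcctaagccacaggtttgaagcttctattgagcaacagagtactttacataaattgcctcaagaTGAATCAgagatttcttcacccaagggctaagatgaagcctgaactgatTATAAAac
S100A10: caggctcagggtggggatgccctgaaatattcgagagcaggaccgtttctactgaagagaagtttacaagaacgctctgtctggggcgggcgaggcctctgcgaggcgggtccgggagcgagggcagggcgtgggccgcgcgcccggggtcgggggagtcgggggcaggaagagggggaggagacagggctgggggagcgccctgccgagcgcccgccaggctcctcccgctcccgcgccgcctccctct
S100A4: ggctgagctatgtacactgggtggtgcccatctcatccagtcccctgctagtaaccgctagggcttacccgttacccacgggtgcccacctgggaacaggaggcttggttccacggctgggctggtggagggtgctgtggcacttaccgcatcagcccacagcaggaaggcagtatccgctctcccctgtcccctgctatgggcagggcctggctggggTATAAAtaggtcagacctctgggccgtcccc
TATAAA began 29 bases before the start of both *S100A8* and *S100A9*, 31 bases before that of *S100A4* and 8 bases before that of *S100A12*. Of 35116 RefSeq promoters searched over the same length and on both strands, 10.7% held it. The *S100A12* window also held TGAATCA, 57 bases before the start, which matches only this looser pattern, with A at N. TGANTCA was held by 6.57% of promoters. The *S100A10* window held neither, nor did those of *S100A6* and *S100A11*, which are not printed. The C/EBP motif TTNCGNAA, present in 2.18% of promoters, was in none of the 7 genes' windows. *S100A8* has 3 RefSeq start sites, and the one shown is also the GENCODE start. The RefSeq starts of *S100A4* (153545806), *S100A6* (153535991) and *S100A11* (152037004) are not the GENCODE starts of these genes. A match is a description of these letters only.

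In every BEV group, *S100A8*, *S100A9*, *S100A12* and *S100A10* were higher than in NC, and *S100A4*, *S100A6* and *S100A11* did not pass the test. Genes with an adjusted p of at most 0.01 (edgeR quasi-likelihood test, Benjamini-Hochberg adjustment over all 17198 genes) were said to rise or fall, and those that also changed at least 2-fold were counted as DEGs. By the first criterion 4 of 7 genes rose in each of the 4 groups and 0 fell. Among all tested genes, 16.5% rose in EUC, 16% in EPL, 13.3% in SPL and 12.4% in SUC, while 14%, 13.2%, 10.6% and 9.15% fell in the same order, and 10.9% rose in all 4 groups. DEGs numbered 4 of 7 in both *E. coli* BEV groups and 3 of 7 in both *S. aureus* BEV groups. In EUC, EPL, SUC and SPL, the higher DEGs were 9.43%, 9.38%, 6.82% and 7.76% of all genes. The median log2 fold change of the 7 genes was 1.12 in EUC, 1.16 in EPL, 0.67 in SPL and 0.63 in SUC, where that of all genes was between -0.01 and 0.01. In these bulk samples, more RNA per cell and more cells of a kind that holds the RNA cannot be told apart.

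**Figure D1:**
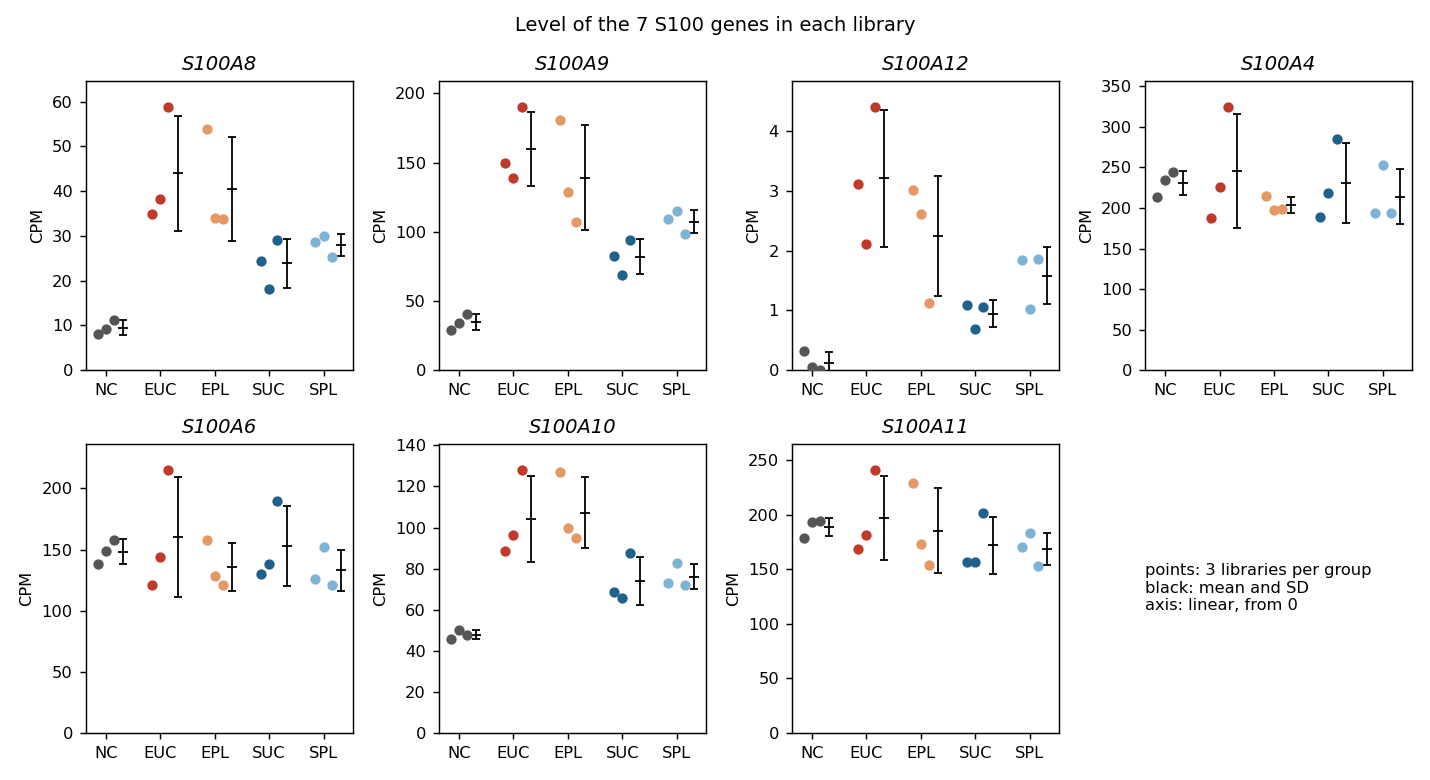
Level of each of the 7 S100 genes in CPM (linear axis from 0), one panel a gene, with a point for each of 3 libraries in NC, EUC, EPL, SUC and SPL and the mean with SD in black. For *S100A8*, *S100A9*, *S100A12* and *S100A10* every BEV library lies above the highest NC library, while for *S100A4*, *S100A6* and *S100A11* 9 or 10 of 12 BEV libraries lie at or below it.

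*S100A8* stood at 8, 9.18 and 11.3 CPM in the NC libraries. It reached 34.9, 38.2 and 58.7 CPM in EUC and 53.9, 34 and 33.7 CPM in EPL. In SUC it was at 24.4, 18.1 and 29 CPM, and in SPL at 28.6, 29.9 and 25.2 CPM. The lowest BEV library was thus above the highest NC library, and the groups fell into an order of EUC, EPL, SPL, SUC and NC in which EUC overlapped EPL and SPL overlapped SUC. The rise was 4.62-fold in EUC (log2 2.21, SE 0.232, adjusted p = 6.08e-07) and 4.26-fold in EPL (log2 2.09, SE 0.232, adjusted p = 1.26e-06). It was 2.51-fold in SUC (log2 1.33, SE 0.234, adjusted p = 0.000285) and 2.94-fold in SPL (log2 1.56, SE 0.233, adjusted p = 4.78e-05).

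*S100A9*, the partner of *S100A8* in calprotectin, had 29.2, 34.2 and 40.7 CPM in NC. The EUC libraries held 150, 139 and 190 CPM and the EPL libraries 181, 129 and 107 CPM. The SUC libraries held 82.8, 69.1 and 94.3 CPM and the SPL libraries 109, 115 and 98.2 CPM. No SUC library reached the lowest SPL library, and SPL overlapped EPL. The gene rose 4.6-fold in EUC (log2 2.20, SE 0.184, adjusted p = 3.28e-08), 4.01-fold in EPL (log2 2.003, SE 0.183, adjusted p = 1.12e-07), 2.36-fold in SUC (log2 1.24, SE 0.181, adjusted p = 3.97e-05) and 3.1-fold in SPL (log2 1.63, SE 0.182, adjusted p = 1.64e-06).

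The 2 calprotectin subunits kept nearly the same ratio while both rose. Per kilobase of the canonical transcript, the ratio of *S100A9* to *S100A8* level was 2.61 ± 0.0404 (SD, n = 3) in NC and had a mean of 2.65 in EUC, 2.46 in EPL, 2.74 in SPL and 2.49 in SUC. Over single libraries it ran from 2.26 to 3.06. With the union of all annotated exons as the length, which adds exons to *S100A8* alone of the pair, the ratio was 5.69 in NC. Over the 15 libraries, Pearson's r of log2 CPM between both genes was 0.99, as a description of libraries that share their groups.

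*S100A12* was the scarcest of the 7 genes, and its values rest on few reads. It had 5, 1 and 0 reads in the NC libraries (0.32, 0.0588 and 0 CPM). In EUC it had 48, 33 and 67 reads (3.12, 2.11 and 4.4 CPM) and in EPL 46, 41 and 18 reads (3.02, 2.61 and 1.12 CPM). In SUC it had 16, 11 and 16 reads (1.09, 0.687 and 1.06 CPM) and in SPL 29, 16 and 27 reads (1.85, 1.03 and 1.86 CPM). Every BEV library was above every NC library, and neighbouring BEV groups overlapped. The fitted rise was log2 4.63 (SE 0.62, adjusted p = 1.04e-05) in EUC, 4.12 (SE 0.642, adjusted p = 5.84e-05) in EPL, 2.87 (SE 0.725, adjusted p = 0.00557) in SUC and 3.61 (SE 0.672, adjusted p = 0.000411) in SPL. NC1 held 5 of the 6 NC reads. Without NC1 the log2 fold changes became 6.42, 5.91, 4.66 and 5.40, so the size of the rise depends on this library. In SUC the test no longer passed without NC2 (adjusted p = 0.0296), NC3 (0.0275), SUC1 (0.0175) or SUC3 (0.0156).

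*S100A10*, the annexin A2 partner also called p11, was at 45.7, 50.2 and 47.8 CPM in NC. It was at 88.5, 96.2 and 128 CPM in EUC and at 127, 99.6 and 95.1 CPM in EPL. The SUC libraries were at 68.4, 65.9 and 87.6 CPM and the SPL libraries at 73.1, 82.9 and 72 CPM. NC lay below all others without overlap, and no *S. aureus* BEV library reached the lowest *E. coli* BEV library. The rise was 2.17-fold in EUC (log2 1.12, SE 0.145, adjusted p = 6.96e-06) and 2.24-fold in EPL (log2 1.16, SE 0.145, adjusted p = 4.8e-06). It was 1.54-fold in SUC (log2 0.63, SE 0.145, adjusted p = 0.00284) and 1.59-fold in SPL (log2 0.67, SE 0.144, adjusted p = 0.00157), below the 2-fold limit of a DEG. The adjusted p in SUC was 0.0165 without NC1, 0.0129 without NC3 and 0.0188 without SUC3. In SPL it was 0.0101 without NC1 and 0.0112 without SPL2. In EUC without EUC3 the log2 fold change was 0.94, under the DEG limit, with an adjusted p of 1.12e-05.

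The other 3 genes were abundant in every group and showed no difference that passed the test. *S100A4* was at 214, 234 and 244 CPM in NC. With *E. coli* BEVs it was at 187, 226 and 324 CPM (EUC) and 215, 197 and 199 CPM (EPL), and with *S. aureus* BEVs at 189, 218 and 285 CPM (SUC) and 194, 253 and 194 CPM (SPL). Its highest library was EUC3 and its lowest EUC1. *S100A6*, or calcyclin, had group means between 133 ± 16.5 CPM (SPL) and 160 ± 48.7 CPM (EUC), with 148 ± 9.72 CPM in NC (SD, n = 3). *S100A11* had group means between 169 ± 15 CPM (SPL) and 197 ± 38.6 CPM (EUC), with 189 ± 8.49 CPM in NC. All neighbouring groups overlapped for each of these genes. Their log2 fold changes ran from -0.18 (*S100A4* in EPL) to 0.11 (*S100A6* in EUC). The 95% intervals reached from -0.55 to 0.49 over all 12 comparisons, so changes inside that range cannot be told from the spread.

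**Figure D2:**
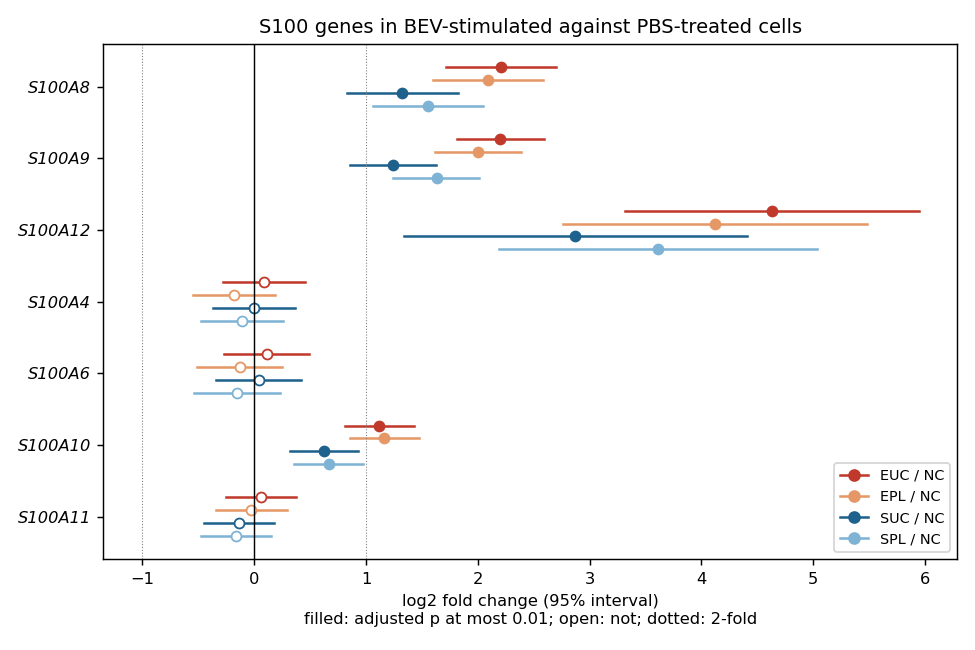
Log2 fold change against NC with its 95% interval for each S100 gene (rows) in EUC, EPL, SUC and SPL (colours), where filled points have an adjusted p of at most 0.01 and dotted lines mark 2-fold. The points of *S100A8*, *S100A9*, *S100A12* and *S100A10* are filled in all 4 groups, and those of *S100A4*, *S100A6* and *S100A11* are open and lie between -0.18 and 0.11.

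Every BEV library was above every NC library for 4 of the 7 genes, and this held for 17.5% of all tested genes. It was below every NC library for 0 of 7 and for 16.1% of all genes. The stretch from *S100A10* to *S100A4* held 10 tested genes. The 4 that rose in all BEV groups were *S100A10*, at one end, and the 3 calgranulins, while *S100A11* lies next to *S100A10*. *S100A3* in the same stretch rose in 3 groups, and the tested epidermal genes *TCHH* and *HRNR* between *S100A11* and *S100A9* did not pass in any.

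Compared per kilobase of canonical transcript, *S100A4* was the most abundant of the 7 in every group, and *S100A12* the least. In NC the mean levels were 450 CPM per kilobase for *S100A4*, 342 for *S100A6*, 335 for *S100A11*, 71.4 for *S100A10*, 60.5 for *S100A9*, 23.2 for *S100A8* and 0.26 for *S100A12*. In EUC *S100A9* stood at 279 CPM per kilobase, above *S100A10* at 155 and next below *S100A11* at 350. *S100A9* was above *S100A10* in all 4 BEV groups and below it in NC. The order depends on the length used. Over the union of exons *S100A11* was the most abundant in every group, and *S100A9* was above *S100A10* in NC too. The calgranulins made up 6.52% ± 0.681 (SD, n = 3) of the summed level of the 7 genes per kilobase in NC. They made up 22.7% ± 1.82 in EUC, 22.2% ± 2.39 in EPL, 18.6% ± 1 in SPL and 14.4% ± 1.87 in SUC, and the lowest BEV library, at 12.9%, was above the highest NC library, at 7.28%.

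**Figure D3:**
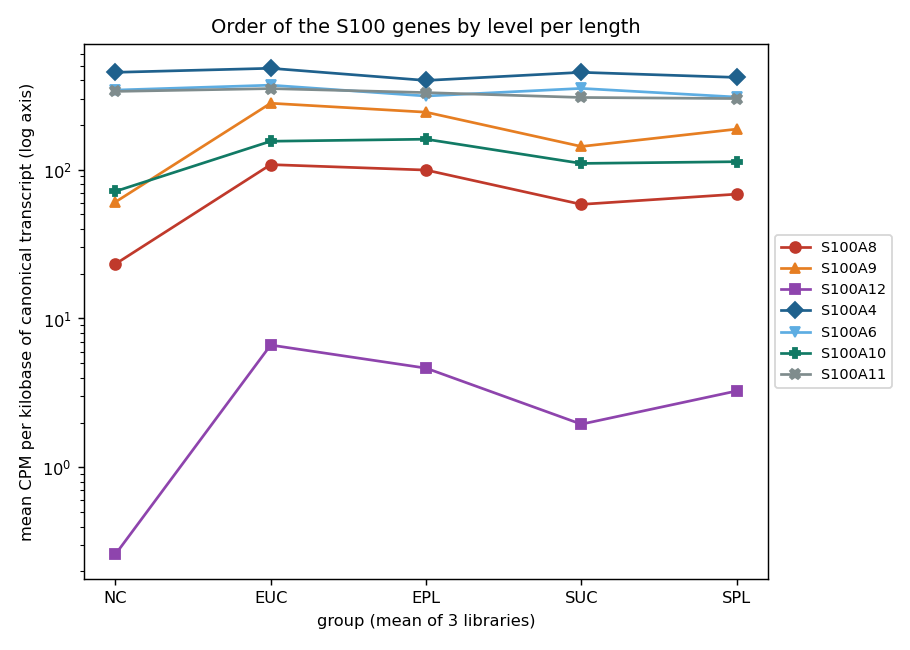
Mean level of each S100 gene per kilobase of its canonical transcript (CPM per kilobase, log axis) in NC, EUC, EPL, SUC and SPL, with each point the mean of 3 libraries and lines joining the points of a gene as a guide only. *S100A4*, *S100A6* and *S100A11* stay near the top, while *S100A9* passes *S100A10* between NC and the BEV groups.

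The *E. coli* and *S. aureus* BEV groups were then compared by the mean of EUC and EPL against the mean of SUC and SPL, at doses that differed. The levels of 3 of the 7 genes were higher with *E. coli* BEVs at an adjusted p of at most 0.01, against 2.87% of all genes, and 0 of 7 were lower, against 1% of all genes. None reached 2-fold with that adjusted p, and 0.663% of all genes did. *S100A8* was 1.64-fold higher (log2 0.71, SE 0.153, adjusted p = 0.00726) and *S100A9* 1.59-fold (log2 0.67, SE 0.123, adjusted p = 0.00223). *S100A10* was 1.41-fold higher (log2 0.50, SE 0.101, adjusted p = 0.00472). Every *E. coli* BEV library was above every *S. aureus* BEV library for *S100A8* and *S100A10*, which held for 3.05% of all genes. For *S100A9* EPL3, at 107 CPM, lay below SPL1 and SPL2. *S100A12* had the widest difference, 2.19-fold (log2 1.13, SE 0.312), and did not pass (adjusted p = 0.0361, edgeR). *S100A11*, *S100A6* and *S100A4* differed by log2 0.17, 0.05 and 0.01, with 95% intervals from -0.06 to 0.39, -0.22 to 0.32 and -0.25 to 0.27.

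These species differences were close to the threshold. For *S100A8* the adjusted p was above it without EPL1 (0.0182), EUC2 (0.0115), EUC3 (0.011), SPL1 (0.0222), SPL2 (0.0179), SPL3 (0.0311), SUC1 (0.0164) or SUC2 (0.0295). For *S100A10* it was above it without EPL1 (0.0121), EPL2 (0.0101), SPL1 (0.0213), SPL3 (0.0234), SUC1 (0.0169) or SUC2 (0.0237). For *S100A9* it was 0.0118 without SPL3 and 0.011 without SUC2. The log2 difference stayed between 0.56 and 0.79 for *S100A8*, 0.55 and 0.73 for *S100A9*, and 0.40 and 0.57 for *S100A10* with any 1 library left out.

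The isolation methods gave no difference in these genes that passed the test. For *E. coli* BEVs, EPL against EUC, 0 of 7 genes passed (smallest adjusted p = 0.947, edgeR). Among all genes 0% passed, while 3.51% had an unadjusted p of at most 0.05, and none of the 7 was among these. The log2 difference of EPL from EUC was -0.12 (95% interval -0.56 to 0.33) for *S100A8*, -0.20 (-0.57 to 0.17) for *S100A9*, -0.51 (-1.37 to 0.34) for *S100A12* and 0.04 (-0.26 to 0.34) for *S100A10*. It was -0.27 for *S100A4*, -0.24 for *S100A6* and -0.09 for *S100A11*. For *S. aureus* BEVs, SPL against SUC, 0 of 7 passed (smallest adjusted p = 0.827), as did 0.00581% of all genes. Here *S100A9* was 1.31-fold higher in SPL without overlap of the libraries (log2 0.39, 95% interval 0.02 to 0.76, SE 0.175, adjusted p = 0.827), and its unadjusted value was among the 5.81% of all genes at 0.05 or less. *S100A8* differed by 0.23 (-0.23 to 0.69), *S100A12* by 0.74 (-0.27 to 1.75) and *S100A10* by 0.04 (-0.26 to 0.34). The intervals of *S100A8*, *S100A9* and *S100A10* exclude a 2-fold difference between the methods, and those of *S100A12* do not. In the test of whether the method difference itself differed between species, all 7 had an adjusted p of 1, and 0% of all genes passed. The log2 value, EPL from EUC less SPL from SUC, was largest in size for *S100A12*, at -1.255 (95% interval -2.58 to 0.07). For *S100A9* it was -0.59 (-1.11 to -0.07), an interval that excludes 0 before adjustment.

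**Figure D4:**
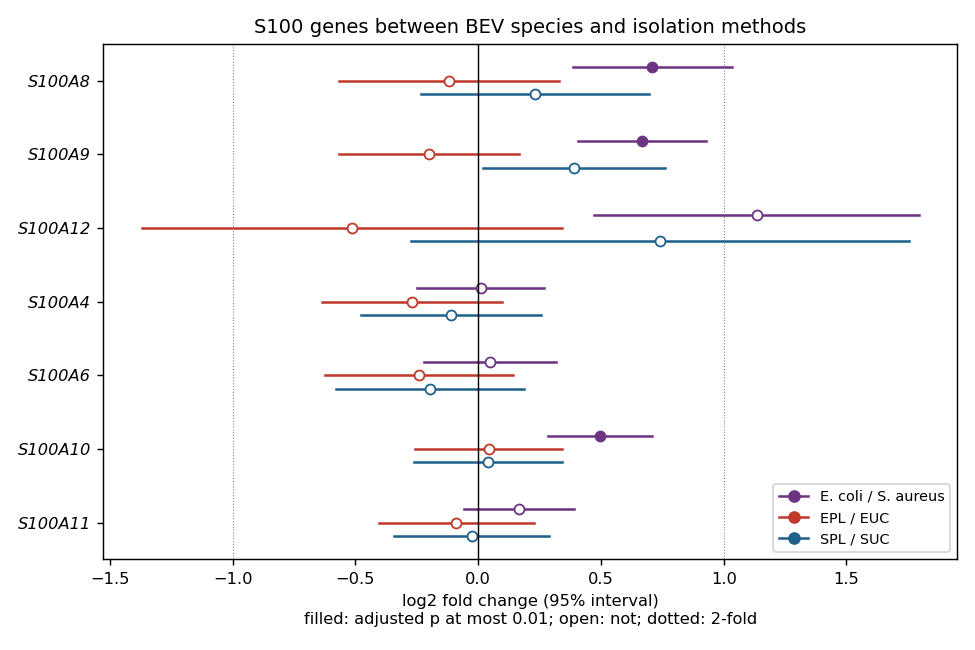
Log2 fold change with its 95% interval for each S100 gene (rows) between *E. coli* and *S. aureus* BEVs and between the PL and UC methods within each species (colours), where filled points have an adjusted p of at most 0.01 and dotted lines mark 2-fold. The filled points are the species differences of *S100A8*, *S100A9* and *S100A10*, at 0.71, 0.67 and 0.50.

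Within a group, the genes other than *S100A12* tended to be high or low together in the same library. The deviations of log2 CPM from the group mean correlated between pairs of the 7 genes with a median r of 0.82 (from -0.03 to 0.97, 15 libraries). Pairs with *S100A12*, the gene with the fewest reads, were at 0.30 or below, and every other pair was at 0.57 or above. EUC3, EPL1 and SUC3 were high, with a median deviation over the 7 genes of 0.44, 0.32 and 0.26. EUC1, EPL3 and SUC2 were low, at -0.22, -0.23 and -0.15. The 3 high libraries also stood apart in short genes as a whole. The median deviation of the 1324 tested protein-coding genes of at most 2187 exon bases was 0.30 in EUC3, 0.20 in EPL1 and 0.23 in SUC3, and over the 15 libraries it correlated with that of the 7 S100 genes, which are all this short, at r = 0.96. Against NC, the short genes had a median log2 fold change of 0.06 in EUC, -0.10 in EPL, -0.05 in SPL and 0.06 in SUC. With an offset for gene length in each library, chosen after these deviations were seen, *S100A8* rose by log2 2.17, 2.08, 1.29 and 1.53 in EUC, EPL, SUC and SPL, and the species differences of *S100A8*, *S100A9* and *S100A10* were 0.71, 0.67 and 0.50 with adjusted p of 0.00167, 0.00111 and 0.000304.

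**Figure D5:**
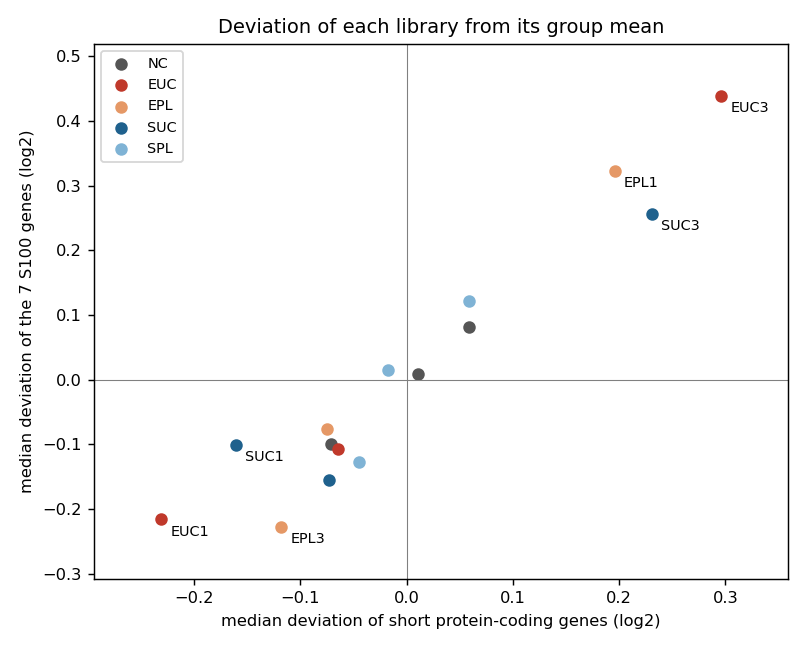
Median deviation of the 7 S100 genes from their group mean (log2, vertical) against the median deviation of 1324 short protein-coding genes (log2, horizontal), with a point for each of 15 libraries coloured by group. The points lie along a rising line (r = 0.96), with EUC3, EPL1 and SUC3 at the upper right.

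The ratio of *S100A10* to *S100A11*, the pair with the highest within-group r (0.97), was steadier within a group than the *S100A10* level. A high r of this kind goes with a steady ratio, so the steadiness is not a separate result. It does not hold for ratios in general, since that of *S100A9* to *S100A8* ran from 2.31 to 3.06 in EUC. The level of *S100A10* per kilobase of canonical transcript, divided by that of *S100A11*, was 0.214, 0.218 and 0.206 in NC. It was 0.439, 0.445 and 0.444 in EUC, where the *S100A10* level itself ran from 88.5 to 128 CPM. In EPL the ratio was 0.467, 0.482 and 0.518, in SUC 0.365, 0.352 and 0.364, and in SPL 0.36, 0.38 and 0.394. NC, the *S. aureus* BEV groups and the *E. coli* BEV groups did not overlap in this ratio, nor did they in the *S100A10* level alone. How many other gene pairs do so was not computed.

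The receptors and co-receptors of calprotectin made a list of 9 genes, of which 7 were tested. In each BEV group 5 rose and 1 fell. Here and for the lists that follow, 4 values without group names stand for EUC, EPL, SUC and SPL in this order. Among all tested genes, 16.5%, 16%, 12.4% and 13.3% rose and 14%, 13.2%, 9.15% and 10.6% fell. *CD36*, a scavenger receptor, rose from 47.4 ± 1.41 CPM in NC to 146 ± 9.21 in EUC, 162 ± 4.83 in EPL, 161 ± 11.3 in SPL and 152 ± 13.4 in SUC (SD, n = 3). *TLR4*, the receptor of lipopolysaccharide and calprotectin, rose from 24.8 ± 0.506 CPM to 61.6 ± 4.25, 66.5 ± 9.62, 43.7 ± 2.46 and 49.4 ± 5.69 CPM in EUC, EPL, SUC and SPL, with log2 fold changes of 1.31, 1.43, 0.82 and 1.00. It was the 1 receptor of the list that was higher with *E. coli* than with *S. aureus* BEVs (log2 0.46, SE 0.0764, adjusted p = 0.000836, edgeR). *CD14*, a co-receptor of TLR4, rose by log2 1.23, 0.96, 1.08 and 0.89. *AGER*, which encodes RAGE, rose by 0.76, 0.72, 0.58 and 0.83. *CD33*, a sialic-acid binding receptor reported to bind S100A9, fell by 0.72, 0.66, 0.35 and 0.40 on the log2 scale. The fifth that rose was *NPTN*, by 0.61, 0.55, 0.53 and 0.50, which is named because it completes the count. *BSG*, at 816 ± 41 CPM in NC, did not pass in any group. *LY96* and *MCAM* were below the count filter, with 2 and 23 reads over the NC libraries. *LY96* had 5, 3, 2 and 5 reads in the BEV groups. The list's median log2 fold change was 0.76, 0.72, 0.58 and 0.83.

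Among 6 intracellular partners of S100 proteins, only 1 rose in each group, near the share of all tested genes that rose. It was *ANXA2*, annexin A2, the partner of S100A10, which went from 92.7 ± 5.88 CPM in NC to 341 ± 67.2 in EUC, 308 ± 29.5 in EPL, 292 ± 12.8 in SPL and 273 ± 28.3 in SUC, with log2 fold changes of 1.88, 1.73, 1.66 and 1.56 in that order (largest adjusted p = 2.34e-08, edgeR). Its change was thus above that of *S100A10* in each group, and its species difference did not pass (log2 0.20, adjusted p = 0.232). *ANXA11*, a partner of S100A6, fell by 1.00, 0.96, 0.81 and 0.84 on the log2 scale. *CACYBP*, the calcyclin-binding protein, fell by 0.61 in EUC, 0.67 in EPL and 0.52 in SPL, and was at -0.32 in SUC (adjusted p = 0.0541). The list's median was -0.10, 0.03, -0.22 and -0.14.

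Of 7 myeloid transcription factors, 3 rose in each BEV group. *SPI1*, which encodes PU.1, rose by log2 1.35, 1.23, 1.03 and 1.09 from 471 ± 15.9 CPM in NC. *HIF1A*, a hypoxia-inducible factor, rose by 1.37, 1.31, 0.89 and 0.99, and was higher with *E. coli* BEVs (log2 0.40, SE 0.0615, adjusted p = 0.000438, edgeR). *CEBPD*, of the C/EBP family, rose by 1.06, 0.79, 0.91 and 0.76. *CEBPE*, a granulocytic member of that family, had log2 fold changes of -1.71, -1.63, -2.02 and -1.35, of which the last did not pass (adjusted p = 0.027), from 2.85 CPM in NC. *CEBPA*, the C/EBP gene with the highest level in NC (419 ± 4.91 CPM), fell by 0.39, 0.57, 0.38 and 0.50 on the log2 scale. *CEBPB* and *STAT3* did not pass in any group. The list's median was 0.27, 0.30, 0.25 and 0.34, and 2, 2, 2 and 1 of its genes fell.

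Other alarmins and antimicrobial proteins made a list of 7, of which 5 were tested and 2 rose in each group. *IL1A*, the cytokine interleukin-1 alpha, had 3 reads over the NC libraries and a mean of 14 CPM in EUC, 11 in EPL, 7.6 in SPL and 5.61 in SUC. *IL33* had no read in NC and a mean of 5.93, 5.11, 1.83 and 1.38 CPM in that order. *LYZ*, lysozyme, fell by 0.29 in EUC, 0.45 in SPL and 0.45 in SUC on the log2 scale, and was at -0.11 in EPL, which did not pass. All 3 were higher with *E. coli* than with *S. aureus* BEVs. The 5 granule proteins of granulocytes held no member that rose. *AZU1*, *ELANE* and *CTSG*, at 3320, 1560 and 726 CPM in NC, did not pass in any group. *MPO*, myeloperoxidase, the scarcest of the 5, fell by 1.59, 1.32, 1.31 and 1.27 on the log2 scale, from 10.2 ± 0.308 CPM in NC. *PRTN3*, proteinase 3, was at 1340 CPM in NC. It fell by 0.66 in EPL and 0.56 in SPL and was at -0.50 in EUC and -0.44 in SUC, where it did not pass.

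The cells carried markers of monocytes, while those of T cells were at or near 0. Of 8 monocyte markers, 7 were tested, and their summed level was between 1000 and 1020 CPM in NC, 1650 and 1880 in EUC, 1530 and 2000 in EPL, 1480 and 1630 in SUC, and 1540 and 1640 in SPL. In each group 3 rose (*SPI1*, *CD14* and *CSF1R*) and 2 fell, *CD33* in each group together with *FCGR1A* in EPL and *LYZ* in EUC, SUC and SPL. The median log2 fold change of the 7 was -0.254 and -0.052 with the *E. coli* BEVs of EUC and EPL, and 0.027 and -0.141 with the *S. aureus* BEVs of SUC and SPL. Most of the rise in the summed level was in *SPI1*, which encodes the transcription factor PU.1 and went from 471 ± 15.9 CPM in NC to group means between 960 and 1200 CPM. Since calgranulins are abundant in neutrophils, 4 neutrophil markers were read as well. The 2 that were tested fell in each group, *CXCR2* by 1.78, 1.57, 1.28 and 1.49 and *CSF3R* by 0.58, 0.54, 0.50 and 0.38 on the log2 scale, and the summed level of the list went from between 252 and 270 CPM in NC to between 150 and 202 CPM in the BEV groups. *HBB* of red cells and *CD3D* of T cells had no read in any library, the T cell list reached at most 0.0624 CPM, and the keratinocyte and epithelial list reached at most 0.131 CPM.

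The table held 14 other protein-coding S100 genes, of which 5 were tested. *S100P* drew the most reads of these, 491 in the NC libraries together, where *S100A8* had 470, and between 450 and 579 in each BEV group. *S100A3* rose from 1.07 ± 0.463 CPM in NC to 3.27 ± 0.867 in EUC (log2 1.62, adjusted p = 0.000474), 4.14 ± 0.796 in EPL (log2 1.96, adjusted p = 6.37e-05) and 3 ± 0.469 in SPL (log2 1.497, adjusted p = 0.00129). In SUC it was at 1.96 ± 0.526 CPM (log2 0.89, adjusted p = 0.0527). *S100A13* rose in EUC (log2 1.39, adjusted p = 4.8e-05) and SPL (log2 0.89, adjusted p = 0.00453), and was at 0.62 in EPL and 0.48 in SUC. It shares exon bases with *S100A1* on the other strand and with a long non-coding RNA, so its reads are uncertain. *S100A2* rose in EUC (log2 1.49, adjusted p = 0.00964), and *S100A1* and *S100P* did not pass in any group. *S100B*, below the filter, had 3 reads in NC, 28 in EUC, 18 in EPL, 6 in SPL and 16 in SUC.

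The genes whose pattern over the 15 libraries was most like that of the calgranulins were picked by Pearson's r of log2 CPM among 10185 protein-coding genes. For *S100A8* they were *MARCKSL1* (r = 0.991), *S100A9* (0.99) and *MAP1LC3A* (0.987). For *S100A9* they were *PDLIM4* (0.99), *S100A8* (0.99) and *CKB* (0.987). For *S100A12* they were *CREBL2* (0.962), *ZFAND3* (0.954) and *EPOP* (0.951). Among the 7 genes themselves, *S100A10* had an r of 0.97 with *S100A8* and 0.95 with *S100A9*, and *S100A4* one of 0.96 with *S100A6*. The libraries share their groups and the short-gene deviations described above, so these are descriptions of likeness.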

How the data were processed

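The 15 libraries of THP-1 RNA fall into 5 groups, which were taken from the titles of the deposited samples. The authors prepared libraries with an NEB kit, sequenced both ends, and aligned reads to hg38 with HISAT2. The submitters' processing notes name FastQC 0.11.5, HISAT2 2.1.0, StringTie 1.3.3b, featureCounts and DESeq 1.28.0. The deposited values were raw read counts per gene, without normalization. For the counting, strand setting and annotation release were not given in the sources used here. Reads of overlapping genes may therefore be misassigned.

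Counts were filtered with filterByExpr, normalized by TMM and fitted over all 15 libraries in 1 model with edgeR 4.0.16 (quasi-likelihood test) in R 4.3.3. The adjustment was that of Benjamini and Hochberg over 17198 genes. The common biological coefficient of variation was 0.118. Log2 CPM used a prior count of 2. A gene rose or fell where its adjusted p was 0.01 or less, and was a DEG if the log2 fold change was also at least 1 in size. DESeq2 1.42.0 was an alternative. Positions and lengths come from GENCODE release 44. The scripts were tested on simulated data.

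All 7 genes, the tested other S100 genes and at most 4 genes that passed per list, by the size of their mean change, were named, with 3 genes of like pattern for each calgranulin. *TCHH*, *HRNR*, *NPTN*, *BSG*, *LY96*, *MCAM*, *S100A11P2*, *S100B*, *HBB* and *CD3D* were added once their values had been seen. So were *AZU1*, *ELANE*, *CTSG*, *CEBPA*, *CEBPB* and *STAT3*. Members and lists were chosen with earlier results of these data known. Some genes of the marker lists are not reported here. Reads are not independent molecules. Alternatives are given in the closing section.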

Additional observations from a re-analysis of the deposited data

Results flagged for a closer look

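The *E. coli* and *S. aureus* BEV groups differed in *S100A8*, *S100A9* and *S100A10* by the test of the difference itself. The log2 difference was 0.71 for *S100A8*, 0.666 for *S100A9* and 0.496 for *S100A10*, each higher with *E. coli* BEVs at 1 μg/mL than with *S. aureus* BEVs at 10 μg/mL. Species and dose cannot be told apart in these groups.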

How the results depend on the processing

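The settings tried gave 532 recomputed values, of which 483 kept their direction and their side of the threshold. The 19 results that had passed gave 284 of these values, and 27 of the 284 no longer passed. With 1 library left out, 41 of 252 values changed direction or side of the threshold. DEG counts of the 7 genes in EUC, EPL, SUC and SPL were the same with DESeq2. With glmTreat, which tests against the 2-fold limit itself, SUC went from 3 to 0 of 7, SPL from 3 to 2, and EUC and EPL from 4 to 3 each. Between *E. coli* and *S. aureus* BEVs the count of DEGs went from 0 to 1 with an adjusted p of at most 0.05, with DESeq2 and with no filter on low counts, each time *S100A12*, and to 3 with no fold threshold. Fitting only the compared groups gave *S100A8* and *S100A10* adjusted p of 0.0154 and 0.0139 for the species. With upper-quartile normalization 4 small values changed sign, to -0.035 (*S100A11*, EUC), -0.01 (*S100A4*, EUC), -0.005 (*S100A4*, species) and -0.04 (*S100A6*, SUC). With 1 library left out, the log2 fold change ran from -0.205 to 0.086 for *S100A11* in EPL, -0.113 to 0.164 for *S100A11* in EUC, -0.128 to 0.102 for *S100A4* between species, -0.167 to 0.256 for *S100A4* in EUC, -0.10 to 0.144 for *S100A6* between species, -0.164 to 0.279 for *S100A6* in EUC and -0.15 to 0.153 for *S100A6* in SUC. None of these passed the test. The cause of these changes was not tested.

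Whether the replicate numbers of the labels pair the libraries is not stated, and the deviations of the libraries do not settle it. For replicates 1, 2 and 3, EUC and SUC correlated at 0.39, 0.05 and 0.52. EUC and EPL were at -0.45, 0.09 and -0.34. Deviations of same-numbered libraries correlated between -0.45 and 0.52 over 30 pairs, of which 7 were over 0.1, and 9 of 15 libraries were closest to their own number. With the replicate number as a block the DEG counts were 4, 4, 3 and 3 of 7 in EUC, EPL, SUC and SPL, and 0 between species and between methods. Depth limits *S100A12*, with 6 reads over the NC libraries.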
